A study of Homo sapiens with 12 samples.

Results

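The comparison described here set 2 altered forms of DROSHA, the m4 mutant and the belt deletion, against each other in the same knockout cell line. Its members were the 6 small RNA libraries of these mutants, 3 for each, out of 12 in the series. All 12 libraries came from a DROSHA knockout (DROSHA-KO) of HCT116, an established cell line from a human colon carcinoma. Every culture received 4.5 µg of the plasmid pXC-NLS-DG4 together with a pCK plasmid: pCK-DROSHA_m4, pCK-DROSHA_belt_deletion, pCK-DROSHA wild type or the pCK empty plasmid. Plasmid DROSHA was given at 4.5 µg. The wild-type and empty libraries, 3 of each, are used below only to place the levels of the mutants. The labels do not say which residues were changed in m4 or removed with the belt, whether the knockout is 1 clone, or whether the 3 repeats of a plasmid were separate cultures, so the p-values measure the spread between these repeats. The amount of DROSHA made from each plasmid was not measured in these files. In bulk RNA, fewer transfected cells and less miRNA per cell cannot be told apart.

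DROSHA is the nuclease of the Microprocessor complex. With its partner DGCR8 it cuts the primary transcript of a miRNA (pri-miRNA) near the base of a hairpin, and DICER then cuts the released precursor near its loop to leave a duplex of a 5p and a 3p strand. One strand is usually kept by an Argonaute protein, and the balance of 5p and 3p reads reflects which strand is kept and how the duplex was made. The belt is a stretch of the central domain of DROSHA that lies against the RNA stem. A few miRNAs are made without DROSHA, among them the miR-320 group, the capped precursor of miR-484, and mirtrons such as miR-877, miR-1224 and miR-1226, whose hairpins are released by splicing.

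Mature strands that the comparisons below turn on are shown first, 5′ to 3′, from RefSeq on GRCh38.p14, where 278 of the 318 miRNA names tested had a sequence. Capitals mark the seed, bases 2 to 8, which sets most target choice. The first pair shares a seed, with one strand called and the other alike, and the 4 strands of mir-30e and mir-30a carry the arm shift.
let-7i-5p: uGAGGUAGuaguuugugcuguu
let-7g-5p: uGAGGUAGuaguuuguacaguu
miR-30e-5p: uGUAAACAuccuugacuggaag
miR-30e-3p: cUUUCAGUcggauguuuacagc
miR-30a-5p: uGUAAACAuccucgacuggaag
miR-30a-3p: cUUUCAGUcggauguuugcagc
miR-378a-3p: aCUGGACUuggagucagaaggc
miR-378c: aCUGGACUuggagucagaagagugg
miR-769-5p: uGAGACCUcuggguucugagcu
miR-28-3p: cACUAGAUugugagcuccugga
miR-21-5p: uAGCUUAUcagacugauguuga
miR-3182: gCUUCUGUaguguaguc
miR-99b-5p: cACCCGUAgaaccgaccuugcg
miR-99b-3p: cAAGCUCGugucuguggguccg

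The hairpins behind the paired comparisons follow, with both mature arms in capitals and the loop between them in lower case. MIRLET7I lies at chr12:62603686-62603769 on the plus strand and MIRLET7G at chr3:52268278-52268361 on the minus strand, in an intron of WDR82. MIR30E lies at chr1:40754355-40754446 on the plus strand, in an intron of NFYC, and MIR30A at chr6:71403551-71403621 on the minus strand, in an intron of LINC00472. MIR99B lies at chr19:51692612-51692681 on the plus strand, in an intron of SPACA6.
MIRLET7I: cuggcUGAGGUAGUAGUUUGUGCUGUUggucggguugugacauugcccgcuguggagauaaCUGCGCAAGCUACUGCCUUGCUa
MIRLET7G: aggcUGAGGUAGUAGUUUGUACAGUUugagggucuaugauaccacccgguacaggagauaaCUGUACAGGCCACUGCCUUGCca
MIR30E: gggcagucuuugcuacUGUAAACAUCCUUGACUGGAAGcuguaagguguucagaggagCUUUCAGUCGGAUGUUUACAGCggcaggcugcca
MIR30A: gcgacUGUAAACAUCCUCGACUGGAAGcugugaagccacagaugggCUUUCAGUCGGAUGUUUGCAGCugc
MIR99B: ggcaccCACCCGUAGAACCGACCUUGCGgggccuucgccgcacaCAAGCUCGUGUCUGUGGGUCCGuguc

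Summed over all its lines, the table held between 132667 and 407461 reads per library. The m4 libraries held 132667, 298695 and 139200 and the belt-deletion libraries 390428, 286810 and 407461. With 1 line kept per mature name and names with the same reads merged, between 101886 and 332081 reads per library remained. Levels are given as scaled reads, the raw count divided by a size factor from 5 DROSHA-independent features. In those features the mutants lay close, with belt deletion over m4 at 1.16 for miR-320, 0.818 for miR-484, 1.01 for miR-877, 1.07 for miR-1224 and 0.884 for miR-1226. Single m4 libraries stood apart in them. m4 repeat 2 held 153729 scaled reads of miR-320, against 67967 and 76448 in the other m4 libraries. m4 repeat 1 held 685 of miR-1224, against 1358 and 1203 in the other m4 libraries. All 8 epithelial marker miRNAs were in the table, and their summed level was 203 to 316 scaled reads with m4 and 137 to 381 with the belt deletion. Of these, miR-194-5p ran from 0 to 1.28 with m4 and from 0 to 3.76 with the belt deletion, and miR-141-3p from 1.07 to 1.85 and from 0 to 7.52. The blood marker miR-451a and the muscle marker miR-1-3p were at or near 0 in all 6 libraries. The endothelial marker miR-126-3p ran from 126 to 188 scaled reads with m4 and from 316 to 461 with the belt deletion. It is among the miRNAs counted below as higher with the belt deletion (log2 1.43, adjusted p 0.000309). Its mean was 393 with wild-type DROSHA and 9.44 with the empty plasmid. The liver marker miR-122-5p ran from 23.6 to 85.9 and from 33.9 to 62.5, and the smooth muscle markers summed to 110 to 261 and 159 to 212. Nearly all of that sum was miR-143-3p, since miR-145-5p was at 0 with m4 and ran from 0 to 2.51 with the belt deletion. The neuron marker miR-9-5p, which returns below among the alike miRNAs, ran from 55.8 to 93.4 and from 50.1 to 112. The other 5 markers sought, of neuron, muscle and blood, had no line under their names in the table. The part of these markers in the results was not tested.

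Most substrates that differed were higher with the belt deletion, and the miRNAs at a like level were mainly ones that wild-type DROSHA had not raised either. Of 318 miRNAs tested, 88 differed between the mutants (27.7%) at an adjusted p under 0.05. Of these, 84 were higher with the belt deletion (26.4%) and 4 were higher with m4 (1.26%). For 53 miRNAs (16.7%) the 95% interval of the difference lay within 2-fold and no difference was called; these are termed alike. The other 177 (55.7%) were undetermined, neither called nor shown alike. The libraries of the mutants did not overlap for 115 miRNAs (36.2%). The median difference over all 318 was 0.16 on the log2 scale, and over the 84 it was 2.13, or 4.38-fold. Of the 84, 50 were beyond 4-fold and 20 beyond 8-fold. Many of the 20 were low with m4, such as miR-548o-3p and miR-129-5p with means of 1.21 and 0.427 scaled reads. These, and others of the 84, passed the filter on low counts only through belt-deletion or wild-type libraries, where they were high. Their folds and p-values are no separate support for a difference. Total-count scaling, which lets the amount of the substrates set the scale, lowered the median of all miRNAs by 1.0 on the log2 scale and gave 47 higher and 121 lower with the belt deletion. With the sum of the reference features as the scale, 56 were higher and 5 lower.

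**Figure D1:**
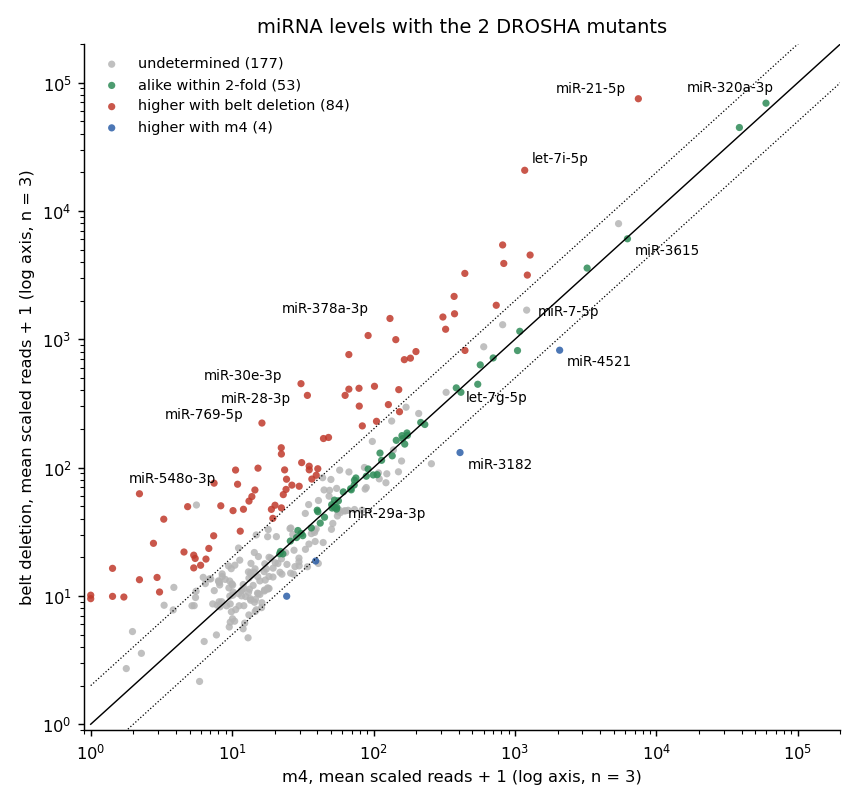
Mean scaled reads + 1 of the 318 miRNAs with m4 (x axis) and the belt deletion (y axis), log axes, n = 3 libraries each. The solid line marks equal levels and the dotted lines a 2-fold difference. The 84 red points lie above the diagonal with let-7i-5p and miR-21-5p among the most abundant, and the 53 green points, miR-320a-3p and let-7g-5p included, lie along it.

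A miRNA was counted as raised by wild-type DROSHA where the wild-type libraries were called above the empty ones, which held for 142 of 318 (44.7%). These libraries are not those of the mutants. Of the 142, 82 (57.7%) were higher with the belt deletion, 9 (6.34%) were alike, 1 was higher with m4 and 50 (35.2%) were undetermined, with a median difference of 1.37. Of the 176 not raised, 2 (1.14%) were higher with the belt deletion, 44 (25%) were alike, 3 (1.70%) were higher with m4 and 127 (72.2%) were undetermined, with a median of -0.13. The 2 exceptions were miR-216a-3p, whose arms are described below, and miR-760. The latter stood at 6.44, 2.77 and 3.84 scaled reads with m4 and at 15.8, 18.8 and 11.9 with the belt deletion. It passed the filter on low counts only through the belt-deletion libraries, where it was high, so its call is no separate support for a difference. Of the 84, 45 were 5p and 39 were 3p strands, a split near the 179 and 139 of all miRNAs tested.

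let-7i-5p, a tumour-suppressive let-7 member that targets RAS and HMGA2 transcripts, had the largest difference among miRNAs with at least 100 scaled reads. It stood at 773, 1282 and 1456 scaled reads with m4 and at 21623, 22513 and 18072 with the belt deletion. Each belt-deletion library lay above every m4 library. The difference was 4.15 ± 0.37 (SE, log2), or 17.7-fold, with an adjusted p of 8.35e-15. With wild-type DROSHA its mean was 23505 and with the empty plasmid 335, so the belt deletion stood at 88.2% of the wild-type mean and m4 at 4.98%.

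miR-21-5p, an oncogenic miRNA and the third most abundant in these libraries, showed the same order. It stood at 5666, 7178 and 9495 scaled reads with m4 and at 77692, 79198 and 67740 with the belt deletion. The difference was 3.33 ± 0.37 (SE, log2), or 10.1-fold, with an adjusted p of 1.34e-11. The groups did not overlap, and the belt-deletion mean was 92.5% of the wild-type mean against 9.20% for m4.

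The miR-378 family shares the seed CUGGACU, and its founder lies in an intron of PPARGC1B, a gene of mitochondrial metabolism. miR-378a-3p stood at 92.3, 134 and 163 scaled reads with m4 and at 1491, 1692 and 1170 with the belt deletion. miR-378c stood at 74.0, 82.2 and 115 with m4 and at 1072, 1268 and 865 with the belt deletion. Neither pair of groups overlapped, and the differences were 3.48 ± 0.35 and 3.56 ± 0.35 (SE, log2), with adjusted p of 5.32e-13 and 2.68e-13. These members are near-identical in their first bases, so reads could be shared between them. The belt-deletion means were 96.8% and 91.9% of the wild-type means.

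Of the 8 largest differences among miRNAs with at least 100 scaled reads in the belt-deletion mean and no overlap, 4 stood above their wild-type mean with the belt deletion. miR-769-5p stood at 14.0, 13.9 and 17.9 scaled reads with m4 and at 190, 315 and 160 with the belt deletion, 14.5-fold apart (log2 3.85 ± 0.42 SE, adjusted p 5.44e-12). Its belt-deletion mean was 325% of the wild-type mean (adjusted p 0.000389) and its m4 mean 22.3%. miR-28-3p, from a hairpin in an intron of LPP, stood at 16.1, 37.0 and 46.1 with m4 and at 247, 527 and 319 with the belt deletion (log2 3.46 ± 0.42 SE, adjusted p 7.44e-10). Its belt-deletion mean was 213% of the wild-type mean. The other 2 were miR-30e-3p and miR-30a-3p, the 3p strands described with their arms below. Over all miRNAs tested, 10 (3.14%) were called above wild type with the belt deletion and 30 (9.43%) below it, against 12 (3.77%) and 114 (35.8%) with m4. Both comparisons share the wild-type libraries.

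**Figure D2:**
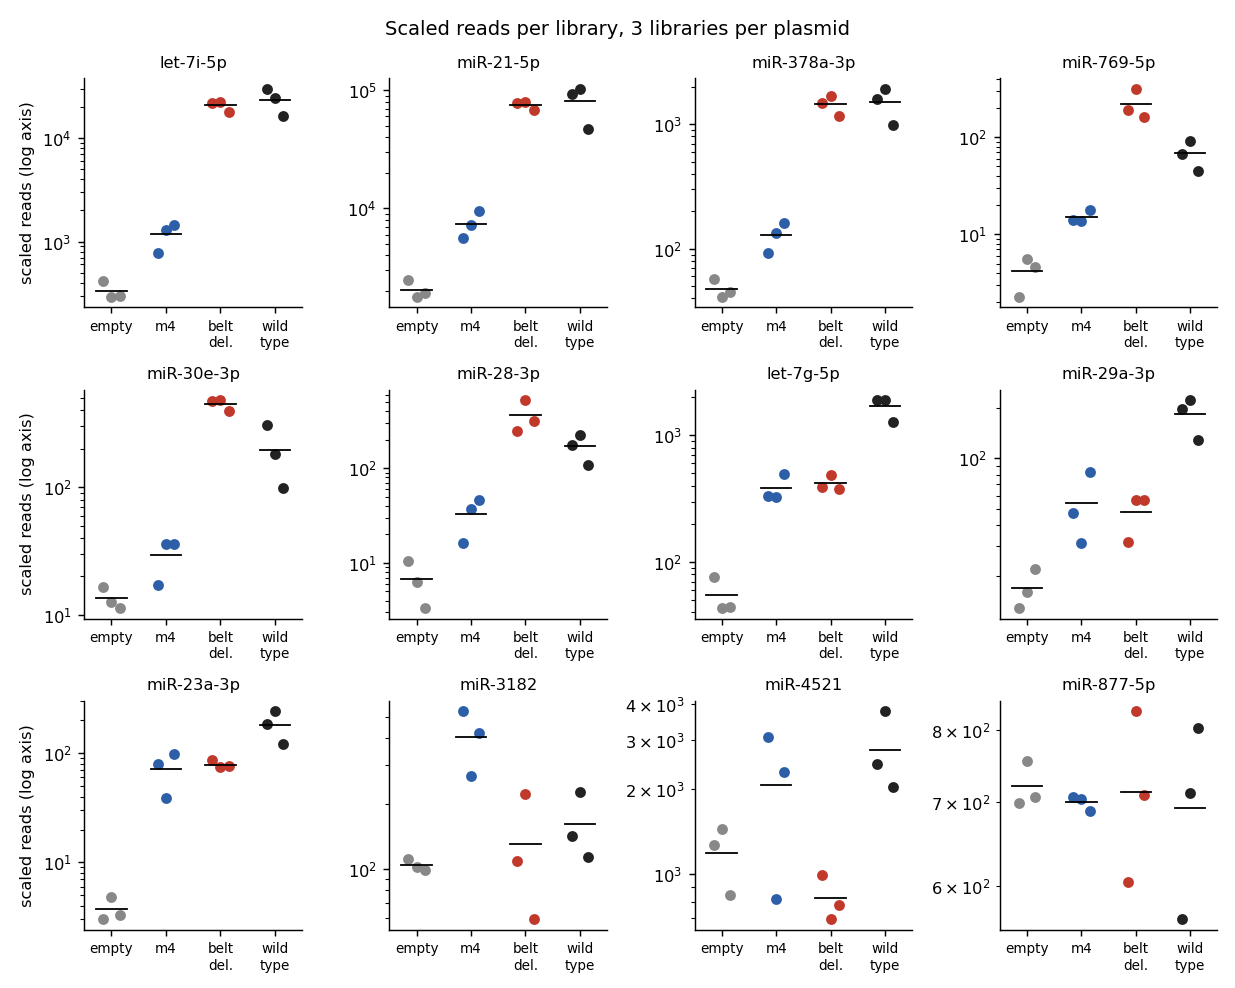
Scaled reads of 12 miRNAs in each library (log y axis, range set per panel), 3 libraries per plasmid, with a line at the mean. In the first 6 panels the belt-deletion libraries lie above all m4 libraries and near or above wild type. For let-7g-5p, miR-29a-3p and miR-23a-3p both mutants lie between empty and wild type, and for miR-877-5p all 4 groups overlap.

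The let-7 family keeps cells differentiated, and its members carry the seed GAGGUAG in their 5p strand. Of 10 let-7 strands tested, 7 were higher with the belt deletion, 1 was alike and 2 were undetermined, with a median difference of 1.32 against 0.16 over all miRNAs. Their range ran from 0.12 for let-7g-5p to 4.15 for let-7i-5p. let-7f-5p stood at 226, 315 and 425 scaled reads with m4 and at 1250, 1269 and 1068 with the belt deletion (log2 1.89 ± 0.33 SE, adjusted p 1.71e-06). let-7a-5p stood at 329, 475 and 521 with m4 and at 820, 869 and 763 with the belt deletion (log2 0.89 ± 0.31 SE, adjusted p 0.0203). The groups overlapped in neither, but the call for let-7a-5p was lost without m4 repeat 1 (adjusted p 0.0992), belt-deletion repeat 1 (0.0638) or belt-deletion repeat 2 (0.0649). Group II let-7 hairpins, which carry an extra base at the cut site and need a nucleotide added before DICER, had 5 of 6 higher with the belt deletion and a median of 1.62. The 2 strands tested of group I, let-7c-5p and let-7e-5p, were undetermined at 0.45 and 0.74, and their median turned to -0.37 under total-count scaling. The difference between group I and II was not tested. Under total-count scaling 2 let-7 strands were called higher and 1, let-7g-5p, lower (log2 -0.92).

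let-7g-5p differs from let-7i-5p by a few bases outside the seed, as the strands above show, and among alike miRNAs that wild type had raised and that averaged at least 200 scaled reads it had the narrowest interval. It stood at 333, 323 and 494 scaled reads with m4 and at 391, 487 and 374 with the belt deletion, and the groups overlapped. The difference was 0.12 (log2, 95% interval -0.50 to 0.75). Wild-type DROSHA gave a mean of 1694 and the empty plasmid 54.6, so the mutants reached 22.6% (m4) and 24.6% (belt deletion) of wild type. Both were called below wild type (adjusted p 7.67e-08 with m4 and 1.35e-06 with the belt deletion) and above empty (1.40e-10 and 8.75e-12), comparisons that share the wild-type or the empty libraries. Over all miRNAs tested, 130 (40.9%) were called above empty with m4 and 141 (44.3%) with the belt deletion. A ratio within a library needs no scaling. The reads of let-7i-5p per read of let-7g-5p were 2.32, 3.96 and 2.95 with m4 and 55.4, 46.3 and 48.4 with the belt deletion. The same ratio was 15.8, 12.7 and 12.8 with wild type and 5.43, 6.74 and 6.80 with the empty plasmid. The 3 wild-type values lay between those of the mutants.

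8 other miRNAs were raised by wild type and alike between the mutants: miR-9-5p, miR-16-2-3p, miR-92a-3p, miR-23a-3p, miR-29a-3p, miR-31-5p, miR-186-5p and miR-17-5p. They are described after their values were seen. miR-29a-3p, which represses collagen and DNA methyltransferase genes, stood at 47.2, 31.4 and 83.2 scaled reads with m4 and at 31.7, 56.4 and 56.3 with the belt deletion. The difference was -0.16 (log2, 95% interval -0.92 to 0.60), and both mutants lay well under the wild-type mean of 183, at 29.5% and 26.3% of it. miR-23a-3p stood at 79.4, 38.8 and 98.5 with m4 and at 86.2, 74.0 and 75.9 with the belt deletion (log2 0.13, 95% interval -0.60 to 0.86), 39.5% and 43.0% of wild type. miR-92a-3p reached 32.1% and 35.9% of wild type, miR-186-5p 27.7% and 25.7%, and miR-17-5p 52.6% and 46.2%. These 5 and let-7g-5p were called below wild type with either mutant. miR-9-5p was at 104% of its wild-type mean with both, and miR-31-5p and miR-16-2-3p lay at 62.7% and 63.2% with m4 and 70.6% and 67.0% with the belt deletion, not called against wild type. All 9 were called above empty with either mutant. The count of alike miRNAs depends on the number of libraries, since fewer widen the intervals: 29 were alike without m4 repeat 2, 34 without m4 repeat 3, 30 without belt-deletion repeat 1 and 35 without belt-deletion repeat 2. Of the 53, these settings kept 26, 26, 27 and 28. With the sum of the reference features as the scale, which miR-320 dominates, 5 of the 53 stayed alike.

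**Figure D3:**
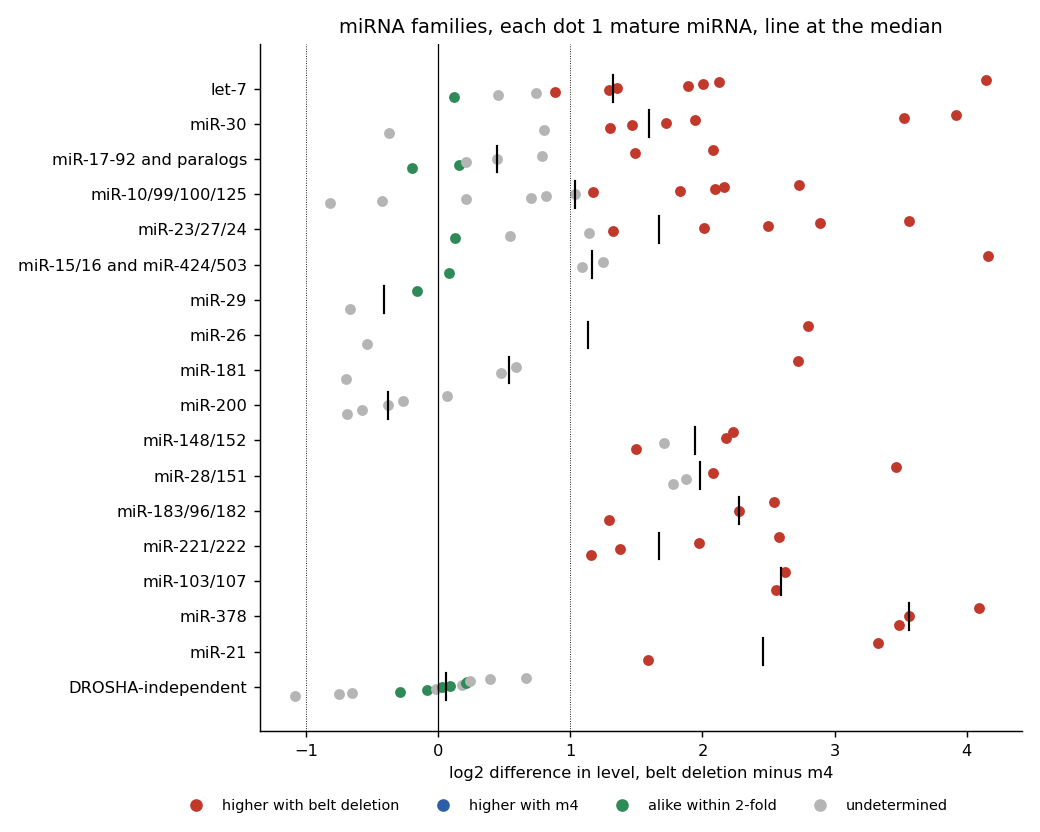
Log2 difference in level, belt deletion minus m4, of each mature miRNA of 18 families or lists (x axis), coloured by call, with a line at the median of each. Dotted lines mark 2-fold. With the reference scaling, every strand tested of the miR-221 and miR-222, miR-183, miR-103 and miR-107, miR-378 and miR-21 lists was higher with the belt deletion, and no miR-200, miR-29 or DROSHA-independent strand was; of these 5 lists, total-count scaling kept all calls of miR-378 and of miR-103 and miR-107 and lost some of the others.

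Other families fell along a range. The miR-30 family, which restrains epithelial to mesenchymal change, had 6 of 8 strands higher with the belt deletion and a median of 1.60. Its member miR-30d-5p ran from 114 to 228 scaled reads with m4 and from 171 to 362 with the belt deletion (log2 0.80, adjusted p 0.0563), with overlap. It was not called, but was with TMM scaling (adjusted p 0.0258), without m4 repeat 3 (log2 1.08, adjusted p 0.0147) and without belt-deletion repeat 1 (log2 1.08, adjusted p 0.0164). All 4 strands of miR-221 and miR-222, repressors of the cell-cycle inhibitor p27, were higher with the belt deletion, with a median of 1.67. miR-222-3p stood at 710, 1687 and 1266 with m4 and at 2899, 3125 and 3462 with the belt deletion (adjusted p 0.000635), and miR-221-3p at 134, 160 and 250 against 813, 625 and 697 (adjusted p 9.59e-07). The belt-deletion mean was 102.7% of wild type for the first and 26.97% for the second, which was called below wild type (adjusted p 6.81e-06).

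The cluster of miR-183, miR-96 and miR-182, known from sensory cells and raised in many carcinomas, had 3 of 3 strands higher with the belt deletion, with a median of 2.27. miR-182-5p stood at 270, 342 and 498 scaled reads with m4 and at 1914, 2611 and 1944 with the belt deletion (log2 2.54 ± 0.34 SE, adjusted p 3.80e-09). Its belt-deletion mean was 104% of wild type. miR-103a-3p and miR-107, from introns of the pantothenate kinase genes PANK3 and PANK1, were higher by 2.63 and 2.56. These 2 sequences differ by 1 base near the end, so their reads are hard to tell apart. In the group of miR-148 and miR-152, 3 of 4 were higher, with miR-148a-3p at 458, 950 and 1088 with m4 and 3910, 4873 and 2904 with the belt deletion.

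The family of miR-10 and miR-100, with miR-99 and miR-125, whose members sit in and beside the HOX clusters or with let-7, had 5 of 11 strands higher with the belt deletion, 6 undetermined and a median of 1.03. miR-10a-5p stood at 608, 795 and 1047 scaled reads with m4 and at 4710, 6771 and 4810 with the belt deletion (log2 2.73 ± 0.34 SE, adjusted p 6.18e-10). miR-100-5p stood at 847, 1252 and 1734 against 3254, 6413 and 3928 (log2 1.83 ± 0.34 SE, adjusted p 8.38e-06). In contrast to these non-overlapping groups, miR-125b-5p ran from 48.3 to 65.3 with m4 and from 17.6 to 65.2 with the belt deletion, and was not called.

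The miR-17-92 cluster with its paralogs, an oncogenic group under MYC, had 2 of 7 strands higher with the belt deletion, 2 alike and 3 undetermined, with a median of 0.45 that turned to -0.62 under total-count scaling. The members called were miR-93-5p (log2 2.08, adjusted p 6.82e-06) and miR-106b-3p (log2 1.49, adjusted p 0.00177), both from the paralog hairpins in MCM7. miR-25-3p of the same paralog cluster was not called (log2 0.78, adjusted p 0.0975), but was without m4 repeat 3 (log2 1.08, adjusted p 0.0263) or belt-deletion repeat 3 (log2 1.01, adjusted p 0.0380). The miR-200 family, which keeps the epithelial state, had none of 5 strands called and a median of -0.38. miR-200c-3p ran from 95.5 to 123 scaled reads with m4 and from 52.9 to 163 with the belt deletion, and miR-200b-3p from 62.2 to 101 and from 34.98 to 123. In both the high belt-deletion library was repeat 2, and without it miR-200b-3p was called lower with the belt deletion (log2 -1.14, adjusted p 0.0339). Total-count scaling called 4 of the 5 lower with the belt deletion.

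Within the miR-23/27/24 clusters, which are copied as 23a-27a-24-2 and 23b-27b-24-1 on separate chromosomes, members of both copies were measured. Of 8 strands tested 5 were higher with the belt deletion, 1 was alike and 2 were undetermined, with a median of 1.67. miR-27b-3p stood at 427, 317 and 578 scaled reads with m4 and at 3315, 3936 and 2525 with the belt deletion (log2 2.89 ± 0.35 SE, adjusted p 1.55e-10). miR-27a-3p, with the same seed UCACAGU, stood at 662, 526 and 612 against 838, 1106 and 674 (log2 0.54, 95% interval -0.08 to 1.16) and was not called. Reads of miR-27b-3p per read of miR-27a-3p were 0.645, 0.603 and 0.946 with m4 and 3.95, 3.56 and 3.75 with the belt deletion. The difference between the copies was not tested, and this ratio, like that of the let-7 pair above and the miR-26 pair below, was chosen after its values were seen.

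The miR-26 pair shares the seed UCAAGUA and sits in introns of CTDSPL and CTDSP1. miR-26a-5p stood at 113, 136 and 179 scaled reads with m4 and at 1021, 936 and 1020 with the belt deletion (log2 2.80 ± 0.33 SE, adjusted p 7.44e-11). miR-26b-5p stood at 19.3, 24.0 and 26.9 against 15.8, 28.8 and 5.12, with overlap and no call (log2 -0.54, adjusted p 0.442). Within libraries the ratio of miR-26a-5p to miR-26b-5p reads was 5.83, 5.65 and 6.67 with m4 and 64.5, 32.4 and 199 with the belt deletion, the last resting on 6 reads of miR-26b-5p. Of the remaining lists, that of miR-28 and miR-151 had 2 of 4 higher, miR-181 1 of 4, miR-15 and miR-16 with miR-424 and miR-503 1 of 4 and miR-146 1 of 1. miR-29 had none of 2, and the single strands tested of the miR-34, miR-130, miR-192 and miR-7 lists were not called. miR-7-5p stood at 930, 1116 and 1576 with m4 and 1612, 1900 and 1546 with the belt deletion, overlapping, while wild type had a mean of 8337. Both mutants were called below it, at 14.5% and 20.2%.

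miR-203a-5p and miR-199b-5p had no read in any m4 library, which allows up to 3 reads per library, and none with the empty plasmid. With the belt deletion they stood at 5.28, 10.0 and 10.2 and at 9.68, 10.0 and 7.68 scaled reads. Both were called higher (adjusted p 0.000651 and 0.000192). They passed the filter on low counts only through the belt-deletion and wild-type libraries, where they were high, so these p-values are no separate support for a difference. No fold is given against 0. The 0 of miR-203a-5p depends on the name its reads were given: miR-203b-3p, with nearly the same reads, stood at 2.15, 0 and 0 scaled reads with m4 and at 5.28, 10.0 and 11.1 with the belt deletion (adjusted p 0.00727). miR-203b-3p passed the filter in the same way, so its p-value is no separate support either.

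Among the DROSHA-independent list of 14 strands, none was called in either direction, 6 were alike and 8 were undetermined, with a median of 0.06 and a range from -1.08 to 0.67. Since 5 features of this list set the scale, their closeness is in part built in. miR-877-5p stood at 707, 704 and 688 scaled reads with m4 and at 603, 829 and 710 with the belt deletion (log2 0.03, 95% interval -0.57 to 0.63). miR-320a-3p, the most abundant strand over the 6 libraries, stood at 40714, 91881 and 45943 with m4 and at 66387, 64033 and 77007 with the belt deletion (log2 0.22, 95% interval -0.47 to 0.90). Of the 8 alike miRNAs with the narrowest intervals, miR-3615, miR-3928-3p, miR-3662 and miR-1292-5p lay outside that list and had not been raised by wild type. miR-3615, annotated in a UTR exon of SLC9A3R1, stood at 4635, 8144 and 5934 with m4 and at 7179, 5449 and 5567 with the belt deletion (log2 -0.04, 95% interval -0.67 to 0.59).

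Only 4 miRNAs were higher with m4 (1.26% of those tested): miR-3182, miR-4645-3p, miR-4521 and miR-5010-3p. miR-3182, a short strand of 17 bases annotated in an intron of CDH13, stood at 533, 267 and 422 scaled reads with m4 and at 109, 221.97 and 58.9 with the belt deletion. The groups did not overlap, and the difference was -1.65 ± 0.37 (SE, log2) with an adjusted p of 0.000269. Its wild-type mean was 161 and its empty mean 104, and m4 was called above both (adjusted p 0.00212 and 1.68e-05). miR-4521 stood at 3074, 816 and 2312 with m4 and at 993, 692 and 776 with the belt deletion, so m4 repeat 2 lay within the belt-deletion range. The difference of -1.33 (adjusted p 0.00206) was not called without m4 repeat 1 (-0.93, adjusted p 0.0584). The remaining strands were low, with means of 23.3 against 8.94 scaled reads for miR-4645-3p (log2 -1.40, adjusted p 0.0352) and 37.96 against 17.7 for miR-5010-3p (log2 -1.12, adjusted p 0.0290). miR-4645-3p was not called without m4 repeat 3 or belt-deletion repeat 1 or 3 (adjusted p 0.132 to 0.255), nor miR-5010-3p without m4 repeat 1 or 2 or belt-deletion repeat 1 or 3 (adjusted p 0.0525 to 0.242). Leaving out belt-deletion repeat 2 gave 8 miRNAs higher with m4, among them all 4 of these.

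The balance of the arms differed for 7 of 32 hairpins with enough reads on both strands (21.9%). In 4 (12.5%) the share of 3p reads was higher with the belt deletion and in 3 (9.38%) that of 5p reads. Of the 7, mir-99b, mir-203a and mir-10401 entered the test only through their belt-deletion reads, as described below. The libraries of the mutants did not overlap in 13 of the 32 (40.6%). This balance is a ratio within a library and does not depend on the scaling. Without m4 repeat 1 or m4 repeat 3, 4 hairpins were called.

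mir-30e and mir-30a, whose hairpins are shown above, moved toward the 3p strand with the belt deletion. For mir-30e, 3p reads made up 42.1%, 73.6% and 54.9% of both arms with m4 and 90.3%, 86.5% and 87.6% with the belt deletion. The 3 m4 libraries rest on 38, 53 and 51 reads. The log2 ratio of 5p to 3p reads differed by -2.45 ± 0.55 (SE), with an adjusted p of 0.000452, and no belt-deletion library overlapped an m4 library. The share was 39.5% ± 9.53 (SD, n = 3) with wild type and 63.9% ± 6.37 with the empty plasmid.

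For mir-30a, the 3p share was 38.8%, 52.9% and 44.1% with m4 and 76.0%, 72.7% and 65.4% with the belt deletion, again with no overlap. The difference of the log2 ratio was -1.59 ± 0.50 (SE, adjusted p 0.0100), and without m4 repeat 3 the adjusted p was 0.0506. With wild type the share was 10.1% ± 4.21 and with the empty plasmid 37.6% ± 2.50 (SD, n = 3). In level, the 3p and 5p strands of mir-30a separated against wild type. miR-30a-3p stood at 40.8, 74.8 and 81.9 scaled reads with m4 and at 779, 899 and 599 with the belt deletion, 434% of the wild-type mean (adjusted p 1.35e-06). miR-30a-5p stood at 64.4, 66.5 and 104 with m4 and at 246, 337 and 317 with the belt deletion, which was 17.5% of the wild-type mean (adjusted p 2.98e-08).

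In mir-30e the strands parted in the same way. miR-30e-3p stood at 17.2, 36.0 and 35.8 scaled reads with m4 and at 474, 482 and 393 with the belt deletion, 229% of wild type (adjusted p 0.0138). miR-30e-5p stood at 23.6, 12.9 and 29.4 against 51.0, 75.2 and 55.5, 20.9% of wild type (adjusted p 3.22e-06). Between the mutants all 4 strands were higher with the belt deletion, the 3p strands by 3.92 and 3.53 and the 5p strands by 1.47 and 1.94 on the log2 scale. The 5p strands carry the GUAAACA seed by which the family is known, and the 3p strands carry UUUCAGU, so the strand that was high with the belt deletion has another seed.

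mir-99b differed in one arm. Its 3p share was 4.08%, 6.06% and 8.82% with m4 and 30.2%, 16.9% and 29% with the belt deletion (log2 ratio -2.20 ± 0.62 SE, adjusted p 0.00511). With wild type it was 24.5% ± 5.56 and with the empty plasmid 7.51% ± 2.08 (SD, n = 3). miR-99b-5p stood at 50.4, 85.9 and 119 scaled reads with m4 and at 52.8, 184 and 60.6 with the belt deletion and was not called (log2 0.21). miR-99b-3p stood at 2.15, 5.54 and 11.5 against 22.9, 37.6 and 24.7 (log2 2.16, adjusted p 0.000111). It passed the filter on low counts only through the belt-deletion and wild-type libraries, where it was high, so this p-value is no separate support. The m4 shares rest on 2, 6 and 9 reads of the 3p strand. Together these fall short of the 20 reads of the lesser arm needed for the test. mir-99b thus entered it only through the belt-deletion libraries, where that arm was high. The p-value of its arm balance is no separate support for a difference.

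mir-216a was the fourth hairpin with more 3p reads with the belt deletion, though its libraries overlapped. The 3p share was 76.9%, 86.8% and 92.9% with m4 and 98.4%, 91.2% and 97.6% with the belt deletion (log2 ratio -2.32 ± 0.67 SE, adjusted p 0.00511). Without belt-deletion repeat 1 it was not called (adjusted p 0.0958). miR-216a-3p stood at 42.9, 73.0 and 118 scaled reads with m4, at 641, 117 and 483.8 with the belt deletion, and had means of 551 in the empty-plasmid and 38.9 in the wild-type libraries. It was higher with the belt deletion (log2 2.41, adjusted p 0.00433). miR-216a-5p stayed near 11 scaled reads in both, with means of 10.97 and 11.3.

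**Figure D4:**
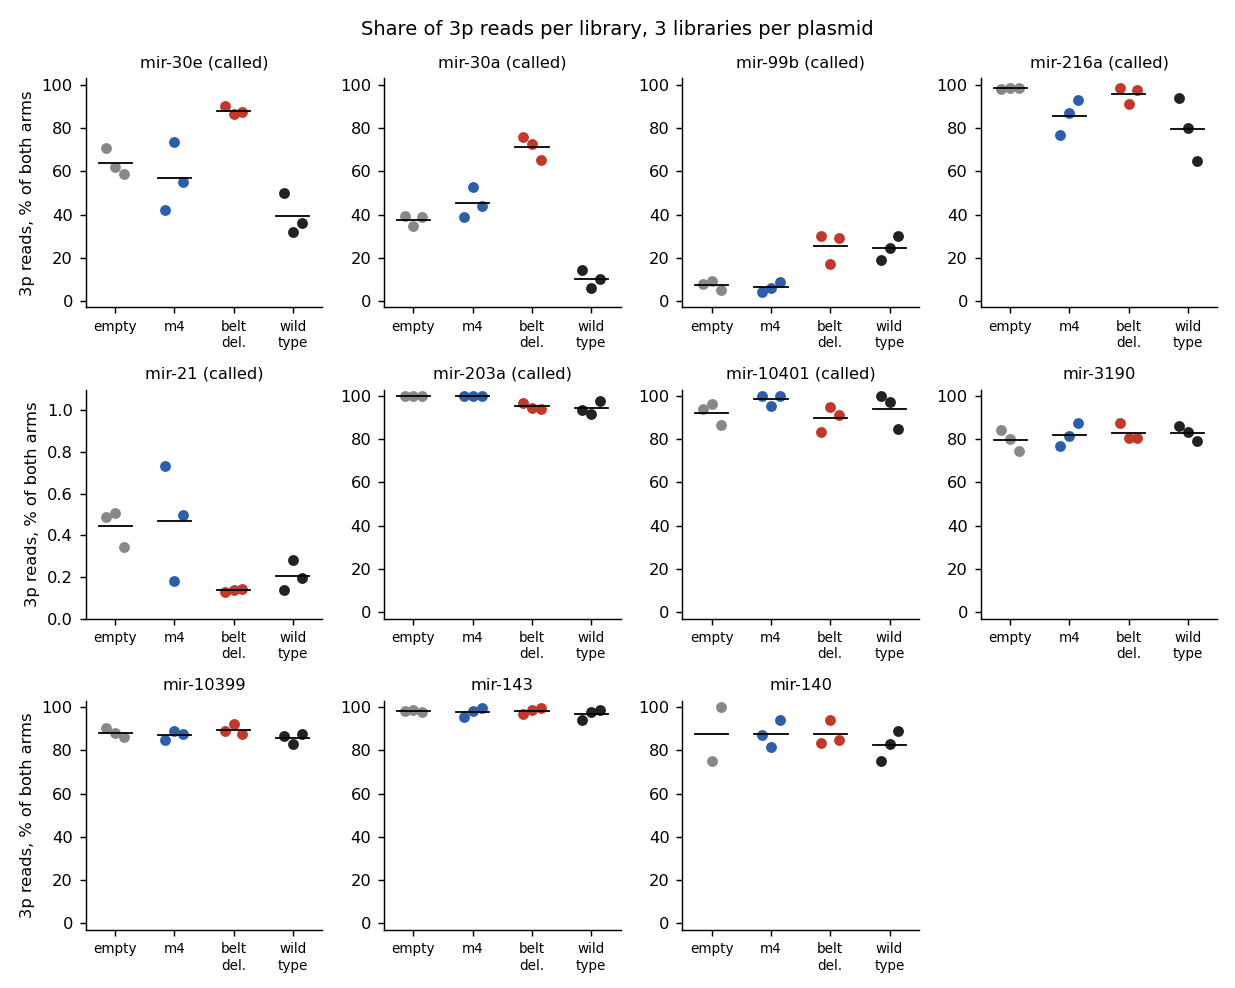
3p reads as a percentage of the reads of both arms in each library, for the 7 hairpins called and the 4 not called with the narrowest intervals, 3 libraries per plasmid, line at the mean. The y axis runs to 1.1% for mir-21 and to 100% elsewhere. mir-30e and mir-30a lie highest with the belt deletion, and mir-99b lies near 25% with the belt deletion and wild type and under 10% with m4 and empty.

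3 hairpins had more 5p reads with the belt deletion. In mir-21 almost every read is 5p, and the 3p share was 0.733%, 0.180% and 0.496% with m4 and 0.130%, 0.136% and 0.141% with the belt deletion (log2 ratio 1.66 ± 0.48 SE, adjusted p 0.00511). The groups did not overlap, but the call was lost without m4 repeat 1 (adjusted p 0.0573) or m4 repeat 3 (adjusted p 0.0525). miR-21-3p itself was higher with the belt deletion, at 101, 108 and 95.6 scaled reads against 41.9, 12.9 and 47.3 (log2 1.59, adjusted p 0.00162), by less than miR-21-5p. In mir-203a the 5p strand had 0 reads in each m4 library and 6, 8 and 12 with the belt deletion (adjusted p 0.0162). The table lists nearly the same reads under mir-203b, on the opposite strand of the same locus, with the arm names exchanged. There the lesser arm had 2, 0 and 0 reads with m4 and 6, 8 and 13 with the belt deletion, and the balance was not called (adjusted p 0.246). mir-10401 had 0, 2 and 0 5p reads with m4 and 8, 3 and 7 with the belt deletion (adjusted p 0.0353). Both calls rest on few reads. To be tested, the lesser arm needed a set number of reads over the mutant libraries. mir-203a and mir-10401, like mir-99b above, met this limit only through the belt-deletion libraries, where that arm was high. The p-values of these calls are therefore no separate support for a difference in arm balance. The call for mir-203a was also lost without m4 repeat 1, 2 or 3 or belt-deletion repeat 3 (adjusted p 0.0650 to 0.0911), and that for mir-10401 without m4 repeat 1 or 3 or belt-deletion repeat 1 or 3 (adjusted p 0.0653 to 0.190).

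4 hairpins with the narrowest intervals were not called: mir-3190, mir-10399, mir-143 and mir-140. For mir-140 the 3p share was 87.4% ± 6.29 with m4 and 87.4% ± 5.62 with the belt deletion (SD, n = 3), and the log2 ratio differed by -0.05 (95% interval -0.86 to 0.76). mir-143 was nearly all 3p, with 5, 3 and 1 reads of the 5p strand with m4 and 8, 2 and 1 with the belt deletion, and differed by -0.07 (-0.87 to 0.74). For mir-3190, whose reads are nearly those of mir-3191 on the opposite strand, the difference was -0.03 (-0.69 to 0.62), and for mir-10399 it was -0.34 (-1.06 to 0.37). These intervals leave room for differences of up to about 2-fold.

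Levels of both strands could be tested for 37 hairpins. Both strands were higher with the belt deletion in 12 of them, the 3p strand alone in 6, the 5p strand alone in 2 and neither in 17. The first count includes both mir-203a and mir-203b and the last both mir-3190 and mir-3191, which hold nearly the same reads. In 15 of the 37 the strands differed in their response by more than 1 on the log2 scale, but a strand called beside one not called is not by that shown to differ. miR-28, for one, had 3p at 3.46 and 5p at 1.78, the latter not called (adjusted p 0.0868).

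As a single value per library, the reads of all other miRNAs relative to the DROSHA-independent reference were 1.81 higher (log2) with the belt deletion. The values, centred on all 12 libraries of the series, were -1.10, -0.74 and -0.50 with m4 and 1.04, 1.19 and 0.87 with the belt deletion. The groups did not overlap, and the exact two-sided permutation test gave p = 0.1, the smallest that 3 against 3 libraries allow. Without the 3 most abundant other miRNAs the difference was 1.02, and as a geometric mean over miRNAs it was 0.53.

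The hairpins of the differing and the agreeing substrates were compared by features of their RefSeq sequence, as a description without a test. The precursor was taken from the first base of the 5p arm to the last base of the 3p arm. The 142 strands raised by wild type came from 117 hairpins, of which 78 had both arms in RefSeq. Where an arm was higher with the belt deletion (46 hairpins) the median precursor was 61 bases with 50.0% G and C and a folding energy of -26.6 kcal/mol. Where an arm was alike and none higher (6 hairpins) it was 60.5 bases with 42.6% and -24.3 kcal/mol. Where an arm was undetermined and none higher or alike (26) it was 60 bases with 48.6% and -24.6 kcal/mol. The letters UGU, an apical motif that DGCR8 can bind, stood in the loop between the arms in 43.5% of the first set (20 of 46), in 3 of 6 of the second, in 42.3% of the undetermined set and in 33.7% of all 739 RefSeq hairpins with both arms. Over the 78 hairpins, which share libraries and scaling, the larger log2 difference of the arms ran with precursor length at r = 0.17 (Spearman rho 0.28) and with G and C content at r = 0.05 (rho 0.08). Folding energy gave r = -0.23 (rho -0.21) and loop length r = 0.12 (rho 0.26).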

How the data were processed

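Small RNAs of 19 to 24 bases were sequenced from total RNA. The authors deposited 1 table of 1409 lines that gives raw read counts, 1 line for each mature name and its hairpin. The submitters' processing notes name Bowtie2, cutadapt and hg38; versions and the handling of reads that match several hairpins were not given in the sources used here. Blank cells (42.7%) were read as 0. For a mature name under several hairpins the line with most reads was kept, and 9 names holding the same reads as another were merged, leaving 1277. Size factors were the median ratio over the mirtrons miR-1224, miR-1226 and miR-877, miR-484 and the sum of miR-320a to miR-320e. edgeR 4.0.16 (R 4.3.3) quasi-likelihood tests were fitted on all 12 libraries after filterByExpr (318 miRNAs), with Benjamini-Hochberg adjustment, calls at an adjusted p under 0.05 and SE from the F statistic. Arm balance was tested with 5p and 3p counts as separate columns and a term for each library, for hairpins with at least 20 reads over both arms in each of the 6 mutant libraries and 20 of the lesser arm. Hairpins sharing a mature name with another hairpin, or holding a merged name, were left out; mir-203a and mir-203b, and mir-3190 and mir-3191, whose names differ by a few reads, were kept. Alternatives were limma 3.58.1, DESeq2 1.42.0, other scalings and filters, and each library left out. RNAfold 2.7.2 gave folding energies. The scripts were tested on simulated data.

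Named were the 8 largest called differences per direction with at least 100 scaled reads and no overlap, the 8 narrowest alike miRNAs with at least 200, the 6 most abundant, up to 8 called and the 4 narrowest uncalled hairpins, and the most abundant members of each family. The members and lists were chosen with earlier results of these data known. Intervals and the limit for 0 reads cover counting error and the spread between repeats only.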

Additional observations from a re-analysis of the deposited data

How the results depend on the processing

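The counts depend most on the scale. With total counts 47 miRNAs were higher and 121 lower with the belt deletion and 15 were alike, and none of the 53 alike miRNAs remained so; with the sum of the reference features 56 were higher, all among the 84, 5 lower and 8 alike. With TMM 7 and with DESeq2 size factors 9 were lower. The median of all miRNAs moved by -0.11 with TMM, -0.20 with DESeq2 size factors, -0.31 with the summed reference and 0.11 without miR-877. Leaving out each library gave 71 to 82 higher, 3 to 8 lower, 29 to 44 alike, 4 to 7 hairpins with another arm balance and a log2 ratio to the reference of 1.65 to 1.95. With at least 100 reads per library 1 hairpin was called, since fewer were tested. let-7a-5p turned to -0.10 under total counts (adjusted p 0.780) and lost its call under the summed reference, as did miR-30e-5p, miR-21-3p and miR-106b-3p under both. Of the comparisons of named miRNAs and hairpins with an alternative, 1459 kept their call or lack of one, 36 gained a call, 41 lost one and 1 turned. A change of sign counted as a turn only for those first called as different. The others could change sign uncounted, and let-7g-5p, lower with the belt deletion under total counts, counted as a gain.

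The repeat numbers did not pair the libraries (same-number correlations between the mutants -0.24, -0.25 and 0.05). With the replicate block 83 miRNAs were higher, all among the 84, 4 lower and 46 alike, the ratio was 1.81, and 6 hairpins were called in limma, mir-21 not among them (adjusted p 0.0572). Names that differed by at most 10% of the larger total were also merged, an alternative added after the data were seen: 81 miRNAs were then higher, all among the 84, 4 lower and 52 alike. With mir-203b kept in place of mir-203a, 6 of 30 hairpins had another arm balance. Depth limits the arm shares of m4 repeats 1 and 3, the libraries with the fewest reads.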
